A study of Caenorhabditis elegans with 2 samples.

Results

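DPL-1 peaks were scored at the promoters of 37 splicing genes of the nematode Caenorhabditis elegans. The members are the protein-coding genes of the WBcel235 annotation whose names are snr-, lsm-, uaf-, rsp- or prp- followed by a number. They comprise 7 Sm, 7 LSm, 2 U2AF, 8 SR and 13 PRP genes, of 19973 protein-coding genes on the nuclear chromosomes. The rule uses gene names and no measured value. A gene was called bound where a peak summit fell into its promoter window, which reached from 500 bp before to 200 bp after any annotated transcript start, and 24 of the 37 members were bound.

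The peaks come from chromatin immunoprecipitation with sequencing of whole L4 larvae, an assay that maps where a tagged protein sits on DNA. The strain is OP105, which carries the integrated transgene wgIs105(dpl-1::TY1 EGFP FLAG;unc119), dpl-1 fused to tags, in animals with the mutation unc119(ed3). The sex is labelled as males and females pooled and the age as unknown. All tissues of the animal are mixed in each library, so a peak cannot be assigned to a cell type. There are 2 biological replicates of 1 group and no comparison group, and so no condition was compared and no test was run. The labels give DNA fragments of 150 to 350 bp, and each replicate was called against a control alignment. The reproducible list, made by the authors with an irreproducible discovery rate (IDR) threshold, holds 3369 peaks with signals from 46.4 to 5205. Signal here is a number deposited with each peak, called against the control, in units that no source names, and the depth of the libraries is unknown.

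DPL-1 is the worm DP protein, which pairs with E2F proteins to bind DNA and is also a subunit of the DRM complex, named DREAM in mammals. Splicing removes introns from precursor messenger RNA in the spliceosome, which is built from small nuclear RNAs and their proteins. Sm proteins form a ring on most spliceosomal RNAs, LSm proteins form a related ring on U6 RNA or, with another subunit, a ring that promotes decapping of messenger RNA in the cytoplasm. U2AF recognises the end of the intron, SR proteins help select exons, and PRP proteins, named from yeast mutants in precursor RNA processing, assemble and drive the spliceosome.

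Of the 37 members, 24 (64.9%) were bound, against 2701 of all 19973 protein-coding genes (13.5%). All 7 Sm genes (100%) were bound, as were 6 of 8 SR genes (75%), 4 of 7 LSm genes (57.1%), 6 of 13 PRP genes (46.2%) and 1 of 2 U2AF genes. The families are small and their difference was not tested. All 37 members lie on autosomes, where 14.5% of genes were bound. Among gene sets with housekeeping roles, 69 of 78 cytosolic ribosomal protein genes (88.5%) and 11 of 31 aminoacyl-tRNA synthetase genes (35.5%) were bound by the same rule. The members' share thus lay between the shares of these sets.

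The bound members had a median signal of 250, with quartiles of 116 and 404 and a range from 67.0 to 896. The median over all bound genes was 148, with quartiles of 81.4 and 311. Of the 24 bound members, 15 lay above that median and 8 above the upper quartile. The SR genes had the highest family median, 370, followed by the Sm genes with 262, the LSm genes with 173 and the PRP genes with 115, while uaf-2 had 86.2. Ribosomal protein genes had a median of 283 and tRNA synthetase genes of 128. The 24 genes rest on 22 summits, since members share a summit at 2 promoters.

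**Figure D1:**
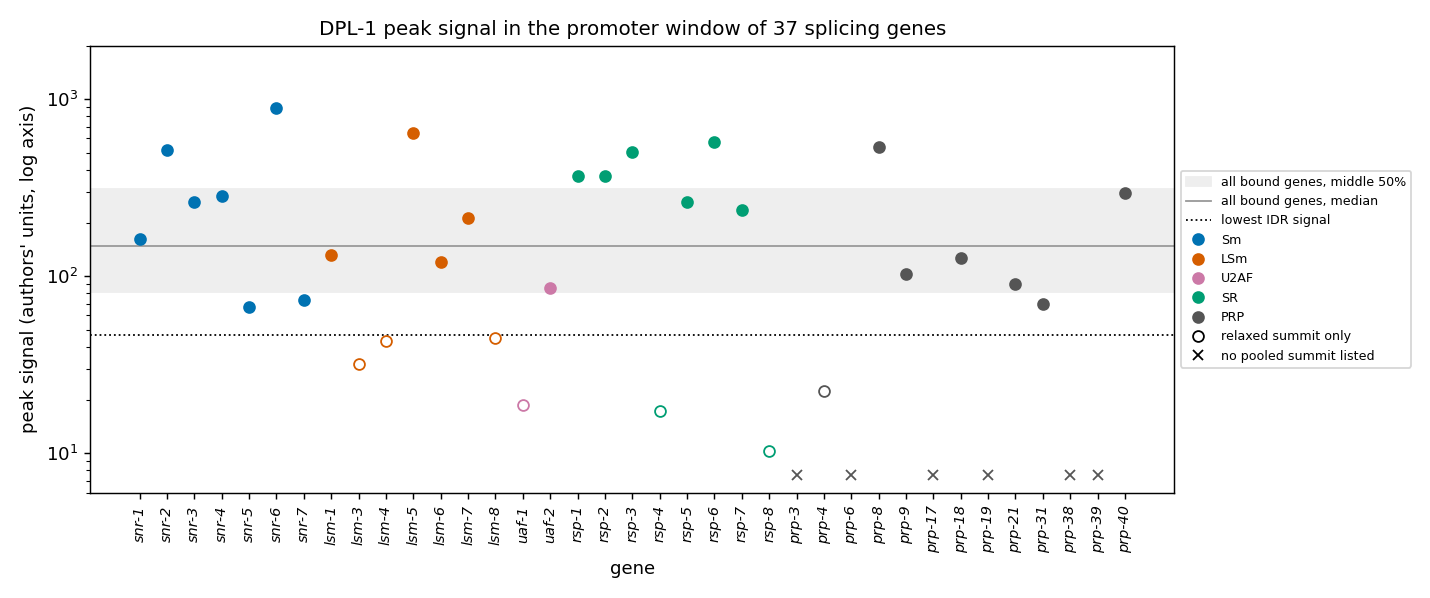
Signal of the strongest DPL-1 peak in the promoter window of each of the 37 genes, in the authors' units on a log axis, coloured by family. Filled points are IDR peaks, open points relaxed peaks only and crosses genes with no pooled peak listed; the band and line give the quartiles and median of all bound genes, and all 7 Sm genes carry a filled point, from 67.0 (snr-5) to 896 (snr-6).

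The sequence at the summits is shown first for 4 promoters: the strongest Sm, SR and PRP summits with an E2F site that could be shown, and the summit that snr-3 and rsp-5 share, added after its values were seen. Letters are from the RefSeq WBcel235 genome, 100 bp either side of the summit, read on the strand of the named gene from 5′ to 3′. Capitals mark matches to the E2F site (TTCCCGC, alternatively TTCGCGC, alternatively TTGCCGC, alternatively TTGGCGC) and to the CHR element, for cell cycle homology region (TTCGAA, alternatively TTTGAA), on the strand shown or in reverse complement. E2F-DP dimers are known to bind the former and LIN-54, the DRM subunit that contacts DNA, the latter.
snr-4 chrV:11979964-11980164 minus strand: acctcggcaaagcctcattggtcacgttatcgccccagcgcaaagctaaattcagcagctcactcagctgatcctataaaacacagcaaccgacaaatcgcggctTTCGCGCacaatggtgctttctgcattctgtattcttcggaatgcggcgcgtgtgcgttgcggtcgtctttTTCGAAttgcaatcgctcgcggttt
rsp-6 chrIV:7791298-7791498 minus strand: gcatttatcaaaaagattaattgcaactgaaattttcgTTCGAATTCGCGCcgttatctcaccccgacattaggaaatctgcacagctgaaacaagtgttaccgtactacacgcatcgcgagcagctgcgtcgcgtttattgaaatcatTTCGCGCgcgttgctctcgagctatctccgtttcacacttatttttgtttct
prp-40 chrIII:9521820-9522020 plus strand: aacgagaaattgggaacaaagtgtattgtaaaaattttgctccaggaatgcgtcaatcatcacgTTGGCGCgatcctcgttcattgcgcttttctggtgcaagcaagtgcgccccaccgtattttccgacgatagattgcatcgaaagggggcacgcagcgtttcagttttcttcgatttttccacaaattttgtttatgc
snr-3 and rsp-5 chrII:6489876-6490076 minus strand: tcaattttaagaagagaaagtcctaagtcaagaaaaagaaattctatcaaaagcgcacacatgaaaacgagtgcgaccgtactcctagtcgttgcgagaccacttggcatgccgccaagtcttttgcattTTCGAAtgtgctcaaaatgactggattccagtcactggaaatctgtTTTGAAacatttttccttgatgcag

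In snr-4, which encodes SmD2, the window holds a TTCGCGC and, nearer the gene, a TTCGAA. In rsp-6 a TTCGAA runs directly into a TTCGCGC, and a further TTCGCGC lies on the gene side of the summit. The prp-40 window holds a TTGGCGC and no CHR element, and the window between snr-3 and rsp-5 holds a TTCGAA and a TTTGAA and no E2F site.

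All 7 Sm genes, which encode the ring subunits, carried a summit well upstream of their annotated starts. Their distances ran from 383 to 215 bp upstream, with a median of 341 bp, and all 7 lay more than 200 bp upstream. The strongest was snr-6 (SmE), on chrIII:12429706-12430046, with a signal of 896, rank 119 of the 3369 IDR peaks and a summit 272 bp upstream. In the replicates' own relaxed lists, which rank 30000 peaks each, that peak had a signal of 508 (rank 97) in replicate 1 and 366 (rank 173) in replicate 2. It was the strongest of all members in the IDR list and in replicate 1 and replicate 2. The signals of the replicate lists and the pooled list have their own scales, so only ranks were compared between them.

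The gene for SmB, snr-2, had a signal of 519 with its summit 342 bp upstream, on chrI:13338900-13339181. Replicate 1 gave 268 (rank 308) and replicate 2 gave 242 (rank 339). Its summit lay nearer to the oppositely transcribed W08E3.4, 124 bp upstream of that gene's start. The snr-4 peak, on chrV:11979929-11980152, had a signal of 285 with its summit 341 bp upstream, and 124 (rank 680) and 166 (rank 528) in the replicates. No other protein-coding start lay within 1 kb of the snr-4 start, but the summit fell in an exon of the noncoding RNA gene C52E4.14.

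The SmD1 gene snr-3 had a signal of 262 on chrII:6489881-6490086, 215 bp upstream, with 123 (rank 683) in replicate 1 and 142 (rank 638) in replicate 2. That summit was also 189 bp upstream of rsp-5, an SR gene on the other strand whose start is 404 bp away. The SmD3 gene snr-1 had a signal of 163 on chrIV:17087541-17087728, 383 bp upstream, with 97.5 (rank 853) and 71.8 (rank 1291) in the replicates. The same summit lay 228 bp upstream of snx-13, a sorting nexin gene. These Sm peaks thus stood above the median bound gene, at 148, while the remaining Sm peaks did not.

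The weakest Sm peaks were those of snr-7 (SmG) and snr-5 (SmF). For snr-7, on chrI:2726546-2726889, the signal was 73.5 at 296 bp upstream, with 37.3 (rank 2153) and 38.9 (rank 2327) in the replicates. This summit lay 6 bp inside the neighbouring gene Y71F9B.6. For snr-5, on chrIII:7861545-7861888, the signal was 67.0 at 353 bp upstream, with 27.7 (rank 2974) and 40.0 (rank 2272). The snr-5 peak was the weakest of all bound members in the IDR list, above the lowest IDR signal of 46.4. Across the family the signal thus varied widely while the summits stayed within the same stretch upstream.

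Among the LSm genes, lsm-1, lsm-5, lsm-6 and lsm-7 were bound and lsm-3, lsm-4 and lsm-8 were not. The strongest was lsm-5, on chrV:15569758-15570089, with a signal of 645 (rank 223) at 440 bp upstream, the farthest of all bound members. Replicate 1 gave 406 (rank 155) and replicate 2 gave 259 (rank 309). The lsm-7 summit, on chrIV:10933164-10933374, had a signal of 213 at 231 bp upstream, with 94.9 (rank 878) and 111 (rank 835). It lay only 68 bp upstream of dnc-1, the dynactin subunit gene on the other strand.

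LSM1 is the subunit that distinguishes the cytoplasmic decapping ring, and LSM8 the subunit that distinguishes the nuclear U6 ring. The lsm-1 peak, on chrII:11126515-11126701, had a signal of 132 at 346 bp upstream, with 51.0 (rank 1565) and 84.5 (rank 1090) in the replicates, and its summit lay 242 bp upstream of the ribosomal protein gene rps-9. The lsm-6 peak, on chrI:1701167-1701287, had a signal of 120 at 124 bp upstream, with 44.8 (rank 1778) and 59.7 (rank 1539). The lsm-8 window held no IDR summit, only a relaxed pooled peak of 45.0 at 455 bp upstream, with 17.8 in replicate 1 and 15.1 in replicate 2. That value lay just under the lowest IDR signal, 46.4, as did 43.0 at 86 bp upstream of lsm-4. The lsm-4 window held 20.8 in replicate 1 and 9.38 in replicate 2. By rank, the lsm-8 peak was 3478 in the pooled list, 5717 in replicate 1 and 5821 in replicate 2. In the same lists the strongest peak of the lsm-4 window ranked 3635, 4407 and 10772. That of replicate 2 lay 38 bp downstream of the lsm-4 start and need not be the same peak. In the pooled list the peaks of both genes thus lay near the lowest IDR signal. In each replicate the strongest peak of either window lay well past rank 3369. The lsm-3 window held a relaxed pooled peak of 31.8 (rank 4949) at 192 bp upstream. Its replicates differed, with 27.9 (rank 2951, within the top 3369) in replicate 1 and 6.81 (rank 16839) in replicate 2.

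U2AF has a large subunit, which binds the polypyrimidine tract, and a small subunit, which reads the AG at the intron end. The small subunit gene uaf-2 was bound, on chrIV:17118746-17118869, with a signal of 86.2 at 9 bp upstream, the summit closest to a start among the members. Replicate 1 gave 42.8 (rank 1860) and replicate 2 gave 50.1 (rank 1854). The large subunit gene uaf-1 had no IDR summit in its window, where the pooled relaxed list held 18.8 at 313 bp upstream and replicate 1 held 16.4. Replicate 2 listed no peak there.

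The 6 bound SR genes all lay above the median signal of bound genes, and 4 of them lay above the upper quartile of 311. Their summits were 282 to 150 bp upstream. The strongest was rsp-6, which encodes an SRp20 counterpart, on chrIV:7791263-7791548, with a signal of 571 (rank 271) at 169 bp upstream and 290 (rank 277) and 267 (rank 290) in the replicates. The rsp-3 gene encodes the worm SF2/ASF (SRSF1) counterpart. Its peak, on chrIII:12688067-12688332, had a signal of 506 (rank 328) at 282 bp upstream, with 295 (rank 272) and 215 (rank 381). The summit lay 114 bp upstream of spin-4 on the other strand.

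The divergent pair rsp-1 and rsp-2 has 1 summit between starts 407 bp apart, on chrII:11453099-11453330. Its signal was 370 (rank 459), with 153 (rank 557) in replicate 1 and 227 (rank 363) in replicate 2. The summit was 150 bp upstream of rsp-1 and 257 bp upstream of rsp-2. The rsp-7 peak, on chrII:10658816-10659026, had a signal of 238 at 268 bp upstream, with 102 (rank 818) and 139 (rank 646). It was shared with snu-13, itself a splicing gene whose product binds U4 RNA, and the summit fell in an exon of the noncoding RNA gene M28.13. Of the 6 bound SR genes, 5 thus shared their summit with a gene on the other strand, and for 4 of these the partner is itself a splicing gene.

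The unbound SR genes were rsp-4, the SC35 counterpart, and rsp-8, a relative of Tra2. The rsp-4 window held a pooled relaxed peak of 17.4 at 442 bp upstream and 9.02 in replicate 1, with none listed in replicate 2. The nearest IDR summit lay 1298 bp upstream of rsp-4 and had a signal of 1544, in the window of ndx-6. The rsp-8 window held 10.3 at 198 bp upstream in the pooled list. Replicate 1 held 9.20 at 403 bp upstream and replicate 2 held 5.58 at 156 bp upstream, which need not be the same peak. An IDR summit of 135 lay 594 bp upstream of rsp-8, beyond the window.

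The PRP family was split, with 6 bound and 7 unbound genes. The strongest was prp-8, the protein at the core of U5, on chrIII:8163877-8164185, with a signal of 539 (rank 301) at 310 bp upstream and 253 (rank 332) and 295 (rank 256) in the replicates. The prp-40 peak, on chrIII:9521782-9522022, had a signal of 294 at 155 bp upstream, with 135 (rank 626) and 162 (rank 539), and is shared with clu-1. It was the stronger of 2 summits in the window. The yeast Prp40 protein is a component of U1. These were the PRP genes above the median bound gene.

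The other bound PRP genes had weaker peaks. The prp-18 peak, on chrIV:9884405-9884510, had a signal of 126 at 68 bp upstream, with 57.3 (rank 1405) and 62.3 (rank 1479), and is shared with the carboxylase subunit gene mccc-1. The SF3a subunit genes prp-9 and prp-21 were both bound. The prp-9 peak, on chrII:8525464-8525594, had a signal of 103 at 131 bp upstream, with 39.6 (rank 2026) and 65.3 (rank 1415), and is shared with mrps-18B, a mitochondrial ribosomal protein gene. The prp-21 peak, on chrII:484464-484807, had a signal of 90.1 at 230 bp upstream, with 57.5 (rank 1399) and 29.5 (rank 3040), and is shared with gldi-1. The replicate summits there lay 86 and 100 bp from the IDR summit, farther than at any other member, and 100 bp is the largest offset counted. They lay on either side of it, 144 bp upstream of the start in replicate 1 and 330 bp upstream in replicate 2. The replicates thus did not give 1 position for prp-21. The prp-31 gene, whose yeast counterpart acts in the U4/U6.U5 particle, had a signal of 69.8 on chrI:5127411-5127754 at 245 bp upstream, with 35.7 (rank 2240) and 26.2 (rank 3377). Its summit is shared with mat-1, an anaphase-promoting complex gene.

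The 7 unbound PRP genes were prp-3, prp-4, prp-6, prp-17, prp-19, prp-38 and prp-39. In yeast Prp3, Prp4 and Prp6 belong to the U4/U6.U5 particle, Prp17 acts in the later catalytic step, Prp19 heads the complex named after it, Prp38 acts in activation and Prp39 belongs to U1. The prp-4 window held a relaxed pooled peak of 22.6 at 264 bp upstream. Replicate 1 held 12.2 at 383 bp upstream and replicate 2 held 16.4 at 233 bp upstream. The prp-3 window had 8.23 in replicate 1 only, and prp-19, prp-38 and prp-39 had 11.2, 7.64 and 7.71 in replicate 2 only. No list held a summit in the windows of prp-6 and prp-17. Of the 13 unbound members, 7 thus had a pooled relaxed summit in the window, and with every relaxed pooled peak 31 of 37 members and 35.7% of all genes had one. Among genes of the U4/U6.U5 particle, prp-3, prp-4 and prp-6 were unbound while prp-8 and prp-31 were bound.

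Just outside the window, IDR summits lay 594 bp upstream of rsp-8 (135), 653 bp upstream of prp-19 (408), 804 bp upstream of prp-6 (51.8) and 948 bp upstream of lsm-3 (197). Those near rsp-8 and prp-6 lay in no gene's window. Just inside, the farthest member was lsm-5 at 440 bp. A window from 1000 bp upstream would count these genes too, for 28 of 37 members against 16.4% of all genes. A narrow window from 200 bp upstream to 100 bp downstream held a summit in 8 of 37 members and 7.61% of all genes, and with the 1684 IDR peaks of highest signal alone 19 members and 8.94% of all genes were bound.

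All 24 bound members had a relaxed summit within 100 bp of the IDR summit in both replicates. The IDR list was itself derived from these replicates and keeps reproducible peaks. The agreement described here therefore follows largely from how the list was made and is no independent check. In replicate 1 their ranks ran from 97 to 2974 with a median of 750.5. In replicate 2 they ran from 173 to 3377 with a median of 642. The top 3369 peaks, as many as the IDR list holds, included all 24 members in replicate 1 and 23 in replicate 2, the exception being prp-31. The median offset of the replicate summit was 5.5 bp in replicate 1 and 13.5 bp in replicate 2.

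**Figure D2:**
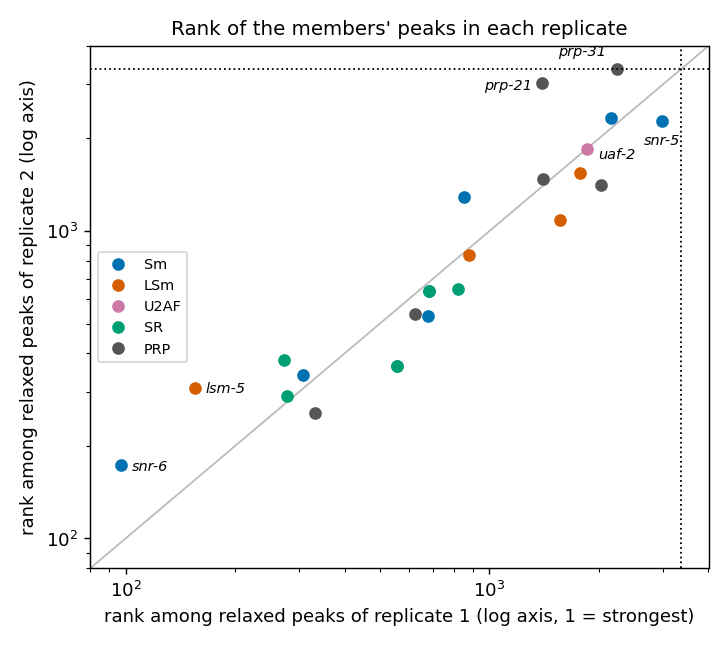
Rank of the peak at each bound member among the 30000 relaxed peaks of replicate 1 (horizontal) and replicate 2 (vertical), both on log axes with 1 as the strongest, coloured by family. The grey line marks equal ranks and the dotted lines rank 3369; prp-31 alone lies past a dotted line, at rank 3377 in replicate 2, and snr-6 is strongest in both.

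By the median, the summits of the members lay farther upstream than those of all bound genes. All 24 were upstream of the annotated start, as were 2549 of all 2701 bound genes. The members' median was 251 bp, with a range from 440 to 9 bp. Over all bound genes the median was 173 bp, with quartiles of 279 and 105 bp, so the members' median lay inside these quartiles. More than 200 bp upstream lay 16 of 24 members (66.7%), against 43.5% of all bound genes. Ribosomal protein genes had a like position, with a median of 293 bp upstream, and tRNA synthetase genes a median of 149 bp. By family the medians were 341 bp for Sm, 288.5 bp for LSm, 223 bp for SR and 192.5 bp for PRP. Because trans-splicing trims the beginning of many worm transcripts, annotated starts need not be the sites of initiation, and the part of this in the distances was not tested.

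**Figure D3:**
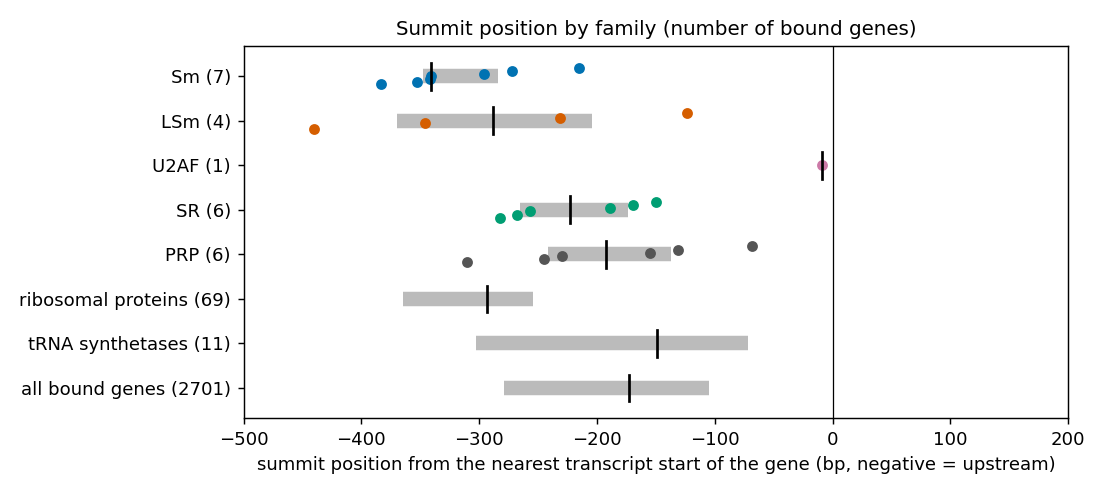
Position of the DPL-1 summit from the nearest transcript start of each bound gene, in bp with negative values upstream. Points are members, grey bars the quartiles and black ticks the medians of each set; all 7 Sm genes lie more than 200 bp upstream, while uaf-2 lies at 9 bp upstream.

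A summit between genes of opposite strand counts for both, so a member's call can rest on its neighbour's promoter. Of the 24 bound members, 16 (66.7%) shared their summit with another protein-coding gene, always on the opposite strand, against 46.8% of all bound genes. For 8 of them the partner's start was nearer than the member's own. These were snr-1, snr-2, snr-3, snr-7, lsm-1, lsm-7, rsp-2 and rsp-3, and with each summit given to its nearest start only, 16 of 37 members were bound (10.4% of all genes), among them 3 of 7 Sm genes. The count of 7 bound Sm genes thus rests on 4 summits that lie nearer to another gene.

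Members stood next to a divergent start more often than genes at large, 23 of 37 (62.2%) within 1 kb against 18.3%. Of those 23 members, 19 (82.6%) were bound, against 38.2% of all genes with such a neighbour. Without one, 5 of 14 (35.7%) were bound, against 7.99%. With no other protein-coding start of any kind within 1 kb, 3 of 11 members were bound, namely snr-4, snr-5 and lsm-5, against 7.51% of such genes. The share bound was thus above that of all genes with and without a divergent neighbour.

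Worm genes can also lie in operons, in which a downstream gene is transcribed from the promoter of the first gene. The annotation used here names no operons, so a gene was called operon-like downstream where a gene on the same strand ended within 500 bp before its start. Of 8 such members 3 were bound, against 9.94% of all such genes, and of the other 29 members 21 were bound, against 14.3%. The bound ones were lsm-5 behind the unbound acyl-CoA synthetase gene acs-2, lsm-6 behind the ubiquitin-conjugating enzyme gene ubc-3, whose own peak had a signal of 105 at 259 bp upstream, and rsp-6 behind C33H5.13 in a run that begins with sgo-1.

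All 5 unbound members in this position had a bound gene directly upstream, against 24.3% of all unbound genes so placed. Upstream of lsm-8 lay sqd-1, with a signal of 613 at 315 bp upstream of its start. The gene before prp-39 was hmgs-1, which encodes HMG-CoA synthase, with 342 at 160 bp. The gene before prp-38 was plrg-1, whose human counterpart belongs to the PRP19 complex, with 285 at 193 bp. The lsm-3 neighbour Y62E10A.23 had 197 at 69 bp and the prp-3 neighbour smrd-1 had 128 at 215 bp. The peak of the upstream gene was thus in the IDR list for each of these unbound members.

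Motifs were counted within 100 bp of the summit on both strands, which is a description of letters and not of binding. An E2F site was found at 4 of the 22 members' summits (18.2%), against 19.9% of all 3369 IDR summits. These were snr-1, snr-4, rsp-6 and prp-40. The same letters read backwards (CGCCCTT, alternatively CGCGCTT, alternatively CGCCGTT, alternatively CGCGGTT), counted as a control, were found at 3 of 22 (13.6%) against 12.2%. For both, the members' share lay close to that of all summits. Among summits of bound genes 21.9% held an E2F site, and among the 1033 strongest of these 30.8% did.

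A CHR element lay at 19 of the 22 summits (86.4%), against 48.8% of all IDR summits and 55.6% of the 2066 summits of bound genes. The share was 66.7% among the 1033 strongest summits of bound genes and 60.5% among those shared by several genes. The 7 Sm and 5 SR summits all held one, as did 3 of 4 LSm and 4 of 6 PRP summits and that of uaf-2. Split by spelling, a split chosen after the values were seen, TTCGAA was found at 15 of 22 summits (68.2%) and TTTGAA at 10 (45.5%). Over all IDR summits the shares were 15.3% (516 summits) and 39.8%, and over summits of bound genes 18.1% and 45.5%. The members' share was thus above that of other summits for TTCGAA and equal to that of bound genes for TTTGAA, differences that were not tested. TTCGAA lay at all 7 Sm summits, 4 of 5 SR summits, 3 of 6 PRP summits, 1 of 4 LSm summits and at uaf-2.

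TTCGAA was about as frequent at the 35 summits of other splicing genes, 21 of them (60%), as at the members', and 11 of these 35 (31.4%) held it within 50 bp, against 7 of 22 (31.8%) for the members. The share was lower in other sets. Of the 1033 strongest summits of bound genes 22.5% held TTCGAA, of summits shared by several genes 23.6%, and of ribosomal protein summits 9.09% (6 of 66). GAGAG, a GA repeat, was found at 4 of 22 members' summits (18.2%) against 54.1% of all IDR summits. Other sets also lay below all IDR summits. GAGAG was found at 46.1% of summits of bound genes and 38.5% of those shared by several genes. The share was 37.9% for ribosomal protein summits and 28.6% for other splicing genes. The median GC content was 40.3% at members' summits and 41.3% at all IDR summits, and the median peak width 236.5 bp and 344 bp. A width of exactly 344 bp recurred at the weak peaks of snr-5, snr-7, prp-21 and prp-31. The part of this recurring width in the medians was not tested.

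**Figure D4:**
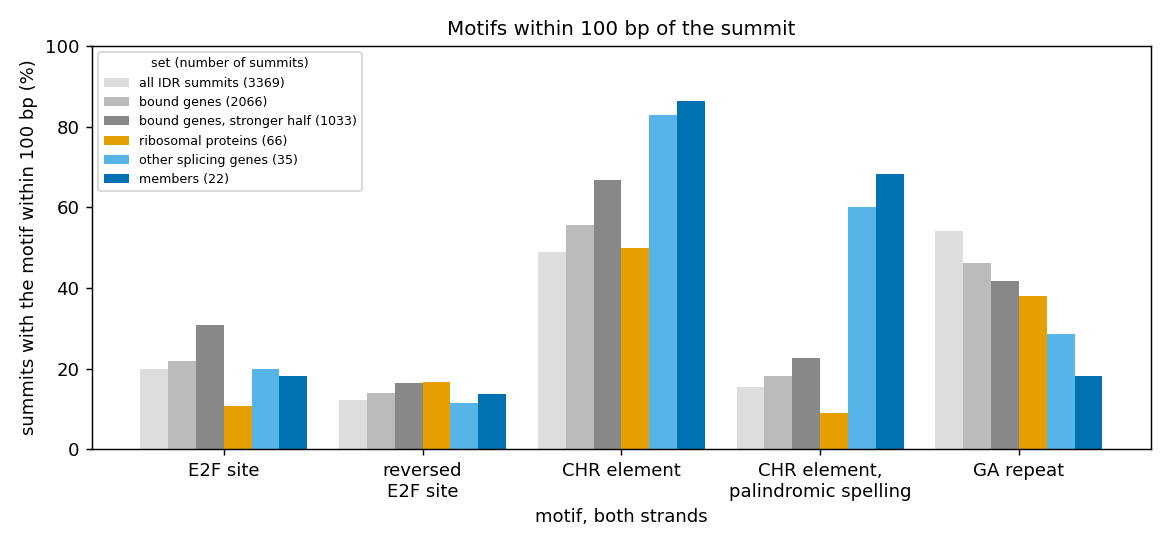
Share of summits, in percent, with each motif within 100 bp on either strand, for all IDR summits, summits of bound genes, the stronger of these, ribosomal protein genes, other splicing genes and the members. For the palindromic spelling of the CHR element the members stand at 68.2% and other splicing genes at 60%, against 15.3% of all IDR summits.

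The 30 bases around the TTCGAA nearest the summit are given for 11 of the 15 summits, on the strand of the gene from 5′ to 3′, with TTCGAA in capitals. They are shown so that the bases around the element can be compared.
snr-1 chrIV:17087690-17087719 plus strand: gcgtgccttattTTCGAAttttattccctt
snr-3 chrII:6489929-6489958 minus strand: gtcttttgcattTTCGAAtgtgctcaaaat
snr-4 chrV:11979971-11980000 minus strand: gcggtcgtctttTTCGAAttgcaatcgctc
snr-5 chrIII:7861758-7861787 plus strand: gctagcgcaactTTCGAAaattcaaggttc
snr-6 chrIII:12429824-12429853 minus strand: tttgaacgaattTTCGAAattatttttgtc
lsm-7 chrIV:10933270-10933299 plus strand: gtgcgctgtgtgTTCGAAaagtgcgtcagc
rsp-3 chrIII:12688135-12688164 minus strand: ggtcgttattttTTCGAAaacgaaggccgt
rsp-6 chrIV:7791443-7791472 minus strand: ctgaaattttcgTTCGAAttcgcgccgtta
rsp-7 chrII:10658966-10658995 plus strand: gattcttttttaTTCGAAtttggctgcatt
prp-8 chrIII:8164117-8164146 plus strand: ttaaattttactTTCGAAaatagaaattat
prp-9 chrII:8525496-8525525 minus strand: aagttgcacattTTCGAAcatcttattttt

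TTCGAA is its own reverse complement, so the strand carries no direction. It lay 13 bp (lsm-7) to 78 bp (snr-4) from the summit. The base before it was T in 8 of the 11 stretches, a count made after the sequences were seen. The base after it was A in 5, T in 5 and C in 1. No background of flanking bases was counted, so a preferred base was not tested. In rsp-6 the element is followed at once by the letters of an E2F site. In the whole promoter window of 701 bp, TTCGAA was found in 19 of the 24 bound members (79.2%) and 5 of the 13 unbound members (38.5%). Over all genes the shares were 45.1% of the 2701 bound and 35.2% of the 17272 unbound ones. The unbound members thus lay near the share of unbound genes at large.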

How the data were processed

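Peaks of GFP-tagged DPL-1 were measured in 2 replicates of 1 group, so no test between groups was made and shares are descriptions. Per the deposited file listings, each replicate has a relaxed list of 30000 peaks called against a control alignment, the pooled alignments have another, and the IDR list of 3369 peaks was derived from these. The signal of a peak is the authors' deposited value against the control, on a scale not stated, and the summit offset in bp (other unit) is theirs too. Peak caller and aligner: not given in the sources used here. Lists on the ce10 build were left out and no read counts were used, so depth and its limits are unknown.

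Summits on ce11 were placed, with 1-based coordinates, on the WBcel235 genes of Ensembl release 115 with Python 3.11.15, pandas 2.3.3 and numpy 2.4.6, and figures drawn with matplotlib 3.10.9. A gene took the strongest summit in its window, and distances are to its nearest transcript start. The placement and motif counts were tested on simulated data. Nearness, window, list, replicate and motif width were varied.

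The members, lists and comparisons were chosen with earlier results of these data known. All members are named, with every gene that shares a summit with them, the gene upstream of an operon-like member, the 5 strongest other splicing genes and the unbound ones. Sequences follow the strongest member of a family with an E2F site off chromosome I. Sequences that run into protein-coding exons are not shown.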

Additional observations from a re-analysis of the deposited data

How the results depend on the processing

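No paired analysis was possible because there is only 1 group. Of the 37 members, 24 bound, the count fell to 8 with a window of 200 bp upstream to 100 bp downstream (7.61% of all genes), in which 0 Sm, 1 LSm, 3 SR and 3 PRP genes were bound. With the nearest start only, Sm fell to 3 and LSm to 2. Among genes with no other start within 1 kb, 3 of 11 were bound: 2 of 2 Sm, 1 of 2 LSm, 0 of 1 U2AF, 0 of 2 SR and 0 of 4 PRP. The 1684 strongest IDR peaks left 19 members and 0 U2AF genes bound (8.94% of all genes). All relaxed pooled peaks gave 31 of 37 members, with 7 LSm and 2 U2AF genes, against 35.7% of all genes.

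To leave out a replicate, as many of the strongest relaxed peaks of the other replicate were taken as the IDR list holds. No new IDR list was made. Without replicate 1, 23 members were bound, with prp-31 lost, against 13.3% of all genes. Without replicate 2, 25 members were bound, with lsm-3 added, against 13.1% of all genes. The median rank percentile of uaf-2 was 93.8 in each replicate against 93.6 pooled, and that of PRP genes ran from 95.2 to 95.3 against 95.1. A window of 1000 bp upstream moved the median distance to -270 bp over all members, -346 bp for LSm, -257 bp for SR and -237.5 bp for PRP. Within 50 bp of the summit, 11 of 22 summits held a CHR element (27.2% of all IDR summits), 7 TTCGAA (6.86%), 4 TTTGAA (21.7%), 2 GAGAG (40%) and 1 the reversed E2F site (9.2%). Within 200 bp, 18 held TTTGAA, against 66.5% of all IDR summits. With a gap of 200 bp, 0 of 3 operon-like members were bound, against 5.4% of all such genes. The other 80 alternative values stayed within the spread or within 1.5 times the first value. Some of them could hardly move, since all 37 members are autosomal and only prp-40 had 2 summits in its window. The count of 16 members with the nearest start only, against 24, lay at the limit of 1.5 times. Unknown depth and the cap of 30000 peaks limit what an unlisted peak shows.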

Other observations

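Other splicing genes were taken from a hand-written list of 62 worm genes for spliceosomal, assembly and SR-related proteins outside the named families, of which 6 (sftb-3, sftb-4, sftb-5, luc-7l, xab-2 and mog-6) matched no gene name of the annotation. Of the remaining 56, 36 (64.3%) were bound, against 13.5% of all genes, with a median signal of 159 and a median summit 196 bp upstream. The strongest were smu-1 with a signal of 1634, syf-3 with 1262, rsr-1 with 1158, isy-1 with 661 and mog-3 with 519. Their summits lay 28, 310, 487, 151 and 153 bp upstream, and that of rsr-1 is shared with sri-5. The gene of the remaining LSm subunit, gut-2 (LSM2), had 144 at 12 bp upstream, in a summit shared with eea-1. By group of the list, 4 of 5 genes of Sm and LSm relatives and assembly were bound, and 6 of 13 listed under U1 and U2. The latter group also holds snrp-40.1 (bound) and snrp-40.2 (unbound), which are counterparts of a U5 protein. The counts were 5 of 8 listed under the U4/U6.U5 particle and 9 of 13 under the PRP19 complex and activation. They were 5 of 8 for MOG proteins and helicases and 7 of 9 for SR-related or exon junction genes.

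The 20 unbound genes were smi-1, rnp-3, rnp-7, repo-1, phf-5, sap-49, sfa-1, snrp-40.2, snrp-200, sart-3, snrp-27, cdc-5L, skp-1, bcas-2, cwc-15, mog-1, mog-2, sacy-1, rnp-4 and rnp-1. Among them 17 had a same-strand gene ending within 500 bp upstream, against 3253 of all 17272 unbound genes. That upstream gene was bound for 9 of the 17, against 24.3% of all unbound genes so placed. TTCGAA lay within 100 bp of 21 of the 35 summits of these other splicing genes (60%), leaving out the snu-13 summit shared with rsp-7, against 15.3% of all IDR summits, and a CHR element of either spelling at 29 of 35 (82.9%). In the 701 bp promoter window TTCGAA was found in 33 of 36 bound (91.7%) and 10 of 20 unbound ones (50%).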
